A study of Mus musculus with 4 samples.

Results

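The CD300 receptors are a family of surface proteins of myeloid cells, and the 6 mouse genes described here are *Cd300a*, *Cd300lf*, *Cd300lb*, *Cd300ld*, *Cd300e* and *Cd300lg*. They were chosen by gene name, and all 6 were among the 28585 genes listed. Expression was measured by bulk RNA sequencing of PMN-MDSCs, the neutrophil-like (polymorphonuclear) kind of myeloid-derived suppressor cell, which restrains T cells. They were sorted from spleens of pups on postnatal day 7 as CD11b+ Ly6C lo/- Ly6G+ cells. The paper states that this gate may also take in other polymorphonuclear cells, so the libraries may hold neutrophils that are not PMN-MDSCs. There were 4 libraries, 2 from pups labelled Dhps cko, whose floxed *Dhps* gene is deleted by a Cre recombinase under the *Lysm* (*Lyz2*) locus (Dhps fl/fl Lysm cre), and 2 from pups labelled Dhps flox (Dhps fl/fl). *Dhps* encodes deoxyhypusine synthase, the enzyme that uses spermidine to modify the translation factor eIF5A. The paper describes the 2 genotypes as littermates, but which libraries share a litter is not given. All mice were on the C57BL/6J background and both sexes were used. The number of pups behind each library is not given in the sources used here. The *Lysm* Cre acts in neutrophils, monocytes and macrophages alike, and there was no group with Cre and intact *Dhps*, so carrying Cre and losing *Dhps* cannot be told apart.

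CD300 proteins carry an immunoglobulin-like domain outside the cell that binds lipids such as phosphatidylserine, which dying cells expose. CD300a and CD300LF carry tyrosine motifs that recruit phosphatases and dampen activation. CD300LB, CD300LD and CD300E have short tails and signal through the partner adaptors DAP12 or the Fc receptor gamma chain, which recruit the kinase SYK. CD300LD is known from neutrophils and tumour PMN-MDSCs, CD300E mainly from monocytes, and CD300LG (nepmucin) from endothelium.

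Levels are given as FPKM, fragments per kilobase of transcript scaled to the mapped fragments of the library, so they can be compared between genes per unit of length. Pairs of values are always given for replicate 1 and then replicate 2. *Dhps* itself was lower in both Dhps cko libraries (2.38 and 2.59 FPKM) than in both Dhps flox libraries (3.57 and 3.11 FPKM) but was still detected, and the difference did not pass over all genes (unadjusted p = 0.026, adjusted p = 0.63 by limma). The FPKM summed to between 304281 and 319286 per library, and approximate depths of 29650000 to 32350000 fragments were read from the steps between low values. These steps were weak (mean cosine 0.125 to 0.166, where 1 would be an exact fit) and were searched only from 20000000 to 44950000 fragments, so the fragment numbers given with single genes are rough. The neutrophil identity of the sort was checked with 11 marker genes, all of which were detected, with a summed level of 76944 and 79382 FPKM in Dhps cko and 76938 and 72407 FPKM in Dhps flox, most of it from *S100a9* and *Ngp*. Of the 11, 4 were higher and 0 lower in both Dhps cko libraries, where 20.0% and 16.0% of all genes tested were. The gate gene *Ly6g* was among these 4, at 222.16 and 241.58 FPKM in Dhps cko and 194.95 and 184.80 FPKM in Dhps flox (unadjusted p = 0.0080, adjusted p = 0.53 by limma), and its part in the receptor values was not tested. The test of genotype used limma on log2(FPKM + 0.1), a scale that understates the fold changes of genes with low FPKM, and covered the 17948 genes whose mean reached 0.1 FPKM. Adjusted p-values follow Benjamini and Hochberg over all of these genes. In bulk libraries, fewer cells of a type and less RNA per cell cannot be told apart.

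The 6 receptors covered a wide span of levels in the sorted neonatal cells. *Cd300lf* was the most abundant, with a mean of 101.5 FPKM over the 4 libraries, above 98.2% of the genes tested. *Cd300lb* followed at 44.1 FPKM, *Cd300ld* at 33.1 FPKM and *Cd300a* at 23.1 FPKM, each above at least 90.4% of the genes tested. *Cd300e* was at 3.82 FPKM, above 62.2% of the genes, and *Cd300lg* at 0.30 FPKM, above 20.5%. The order was the same in every library. For all 5 pairs of neighbours in this order, the 4 values of the higher gene lay above the 4 values of the lower gene. *Cd300lf* alone made up between 47.65% and 50.37% of the summed FPKM of the 6 genes, *Cd300lb* between 20.55% and 22.84%, *Cd300ld* between 15.55% and 16.74% and *Cd300a* between 10.75% and 11.64%. *Cd300e* made up between 1.66% and 2.2% and *Cd300lg* at most 0.2%.

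**Figure D1:**
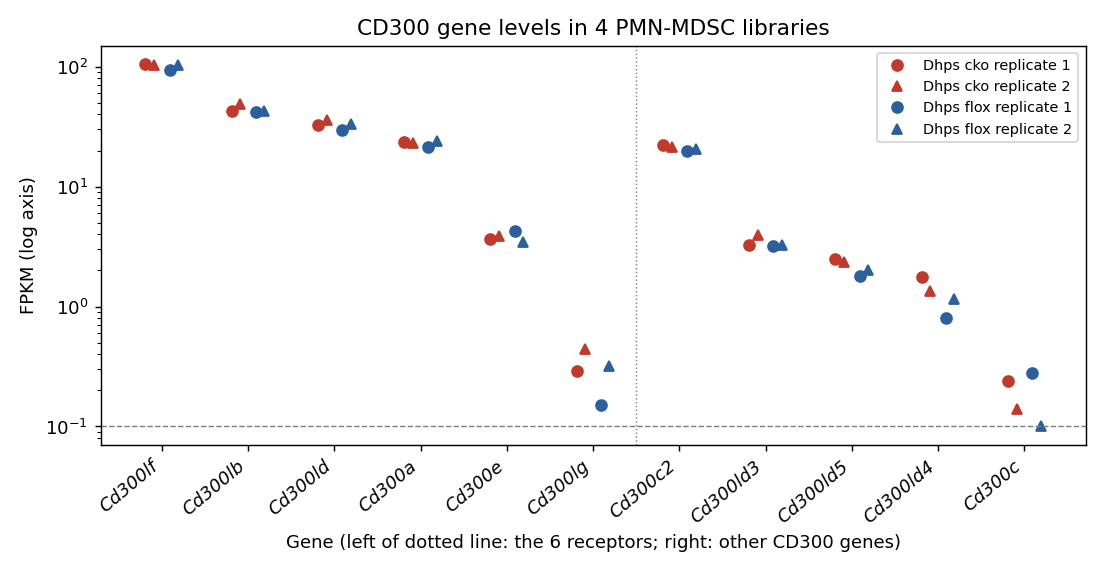
FPKM (log axis) of the 6 CD300 receptors and of 5 other CD300 genes in each library; colours mark the genotype, shapes mark the replicate, and the dashed line marks the mean of 0.1 FPKM required for testing. *Cd300lf* lies between 94.6 and 105.2 FPKM in all 4 libraries, *Cd300lg* between 0.15 and 0.44, and the genotypes overlap for every receptor except *Cd300lb*; *Cd300ld2*, listed at 0 in both Dhps flox libraries, is not drawn.

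All of the 6 receptor genes except *Cd300lg* lie in a single cluster. In GRCm38, 11 CD300 genes, among them *Cd300a*, *Cd300lb*, *Cd300ld*, *Cd300e* and *Cd300lf*, occupy 244.0 kb of chromosome 11 (114890041 to 115133992), whereas *Cd300lg* (ENSMUSG00000017309, 102041509 to 102055620, plus strand) lies 12.8 Mb away on the same chromosome. Levels along the cluster were not graded by position. *Cd300a* (ENSMUSG00000034652, 114890041 to 114904654, plus strand) and *Cd300lf* (ENSMUSG00000047798, 115116214 to 115133992, minus strand), the 2 inhibitory receptors, are at its opposite ends. *Cd300lb* (ENSMUSG00000063193, 114922781 to 114934386), *Cd300ld* (ENSMUSG00000034641, 114982274 to 114989922) and *Cd300e* (ENSMUSG00000048498, 115051917 to 115062177) are on the minus strand between them. *Cd300c*, between *Cd300lb* and *Cd300ld*, was at a mean of only 0.19 FPKM. *Cd300lf* lies within *Rab37*, a gene on the opposite strand, but shares 0 exon bases with it, and *Rab37* was at 11.15 to 11.99 FPKM. Whether the counting used strand is not given in the sources used here.

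**Figure D2:**
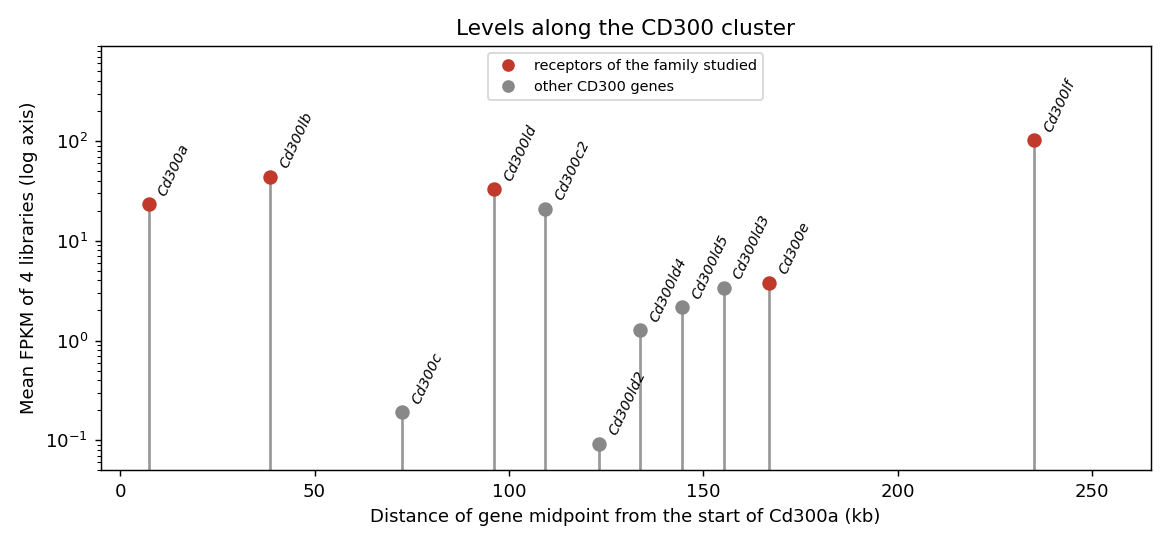
Mean FPKM over the 4 libraries (log axis) of the 11 CD300 genes of the cluster against the distance of each gene's midpoint from the start of *Cd300a* in kb; red points are receptors described here and grey points other CD300 genes. The abundant genes stand at both ends and in the middle of the cluster, with *Cd300c* at 0.19 FPKM between *Cd300lb* and *Cd300ld*.

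*Cd300lf* encodes an inhibitory receptor that binds phosphatidylserine and ceramide. It was at 105.18 and 102.71 FPKM in Dhps cko and at 94.62 and 103.47 FPKM in Dhps flox. Dhps flox replicate 1 was the lowest library, and the genotypes overlapped. On the log2 scale Dhps cko differed from Dhps flox by 0.07 (standard error 0.065, 95% interval -0.10 to 0.24, adjusted p = 0.85 by limma), so the interval allowed a ratio of Dhps cko to Dhps flox from 0.936 to 1.18. The difference was 0.006 without Dhps flox replicate 1, 0.135 without Dhps flox replicate 2 and 0.011 after quantile normalization. Because it was the most abundant member, its promoter is shown, followed by that of *Cd300c*, the tested gene of the cluster with the lowest level. These are the 250 bases before the start in RefSeq (GRCm38.p6), for *Cd300lf* at chr11:115133993-115134242 and for *Cd300c* at chr11:114960508-114960757, both on the minus strand and read 5′ to 3′. Capitals mark the letters GAGGAA on either strand, the core of sites bound by the myeloid factor PU.1.

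Cd300lf: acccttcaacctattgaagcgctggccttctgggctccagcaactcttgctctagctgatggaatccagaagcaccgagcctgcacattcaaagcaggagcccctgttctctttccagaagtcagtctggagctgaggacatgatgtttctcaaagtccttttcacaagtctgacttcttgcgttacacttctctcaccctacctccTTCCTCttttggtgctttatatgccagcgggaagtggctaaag

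Cd300c: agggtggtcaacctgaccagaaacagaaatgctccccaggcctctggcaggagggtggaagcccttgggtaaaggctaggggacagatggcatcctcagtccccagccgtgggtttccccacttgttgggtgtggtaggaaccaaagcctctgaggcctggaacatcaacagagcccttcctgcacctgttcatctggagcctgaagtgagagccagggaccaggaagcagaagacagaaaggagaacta

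The *Cd300lf* window held 1 match, beginning 43 bases before the start, and the *Cd300c* window held 0. Of the 10 CD300 genes with a RefSeq window, 7 held the letters, namely *Cd300a*, *Cd300lf*, *Cd300ld*, *Cd300c2*, *Cd300ld3*, *Cd300ld4* and *Cd300ld5*, against 23.3% of all 32851 promoter windows of this length. Among these, the windows of *Cd300ld3*, *Cd300ld4* and *Cd300ld5* are near copies of each other, and that of *Cd300ld* holds the same related stretch at a shifted position, so these matches are not separate instances and the count cannot be read against the share of all windows. *Cd300lb* and *Cd300e*, both expressed, held 0 matches. Parts of several windows are exon bases in GENCODE M21, namely 138 of the 250 bases for *Cd300e*, 79 for each of *Cd300ld3*, *Cd300ld4* and *Cd300ld5*, 36 for *Cd300ld* and 15 for *Cd300lb*. The letters TTGCNNAA, a core of sites bound by C/EBP factors and searched on both strands, were found in 1 of the 10 (*Cd300a*, apart from its GAGGAA match) and in 9.6% of all windows. These matches describe letters, not binding.

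*Cd300a*, the other inhibitory receptor, restrains neutrophils, mast cells and monocytes. It was at 23.75 and 23.17 FPKM in Dhps cko and at 21.51 and 24.13 FPKM in Dhps flox. Both the lowest and the highest value were in Dhps flox, so the Dhps cko values lay inside the Dhps flox range. With an adjusted p of 0.95 by limma, the log2 difference was 0.04 (95% interval -0.16 to 0.24). Leaving out Dhps flox replicate 1 turned it to -0.041.

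*Cd300lb* encodes an activating receptor that pairs with DAP12. It was at 43.00 and 49.23 FPKM in Dhps cko and at 41.60 and 42.61 FPKM in Dhps flox. It was the 1 member of 6 whose genotypes did not overlap, by a margin of less than 1 FPKM between Dhps cko replicate 1 and Dhps flox replicate 2. Of all genes tested, 36.0% showed no overlap and 20.0% showed none with higher values in Dhps cko, so 1 of 6 is near the background. Its log2 fold change was 0.13 (95% interval -0.08 to 0.34, adjusted p = 0.80 by limma). It came to 0.225 without Dhps cko replicate 1 and to 0.03 without Dhps cko replicate 2.

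*Cd300ld*, whose protein pairs with the Fc receptor gamma chain, was at 32.91 and 36.09 FPKM in Dhps cko and at 29.85 and 33.39 FPKM in Dhps flox. Dhps cko replicate 1 lay below Dhps flox replicate 2, so the groups overlapped. By limma the log2 fold change was 0.13 (95% interval -0.09 to 0.34, adjusted p = 0.81), with 0.046 without Dhps flox replicate 1 and 0.21 without Dhps flox replicate 2. *Cd300ld* stood at about the same ratio to *Cd300a* in 3 libraries (1.38 to 1.39) and at 1.56 in Dhps cko replicate 2.

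*Cd300e*, an activating receptor known mainly from monocytes, was at 3.69 and 3.90 FPKM in Dhps cko and at 4.23 and 3.45 FPKM in Dhps flox. The Dhps cko values lay inside the Dhps flox range. Between genotypes the log2 difference was -0.01 (95% interval -0.36 to 0.34, adjusted p = 0.995 by limma). Its sign depended on single libraries, with 0.03 without Dhps cko replicate 1 and 0.13 without Dhps flox replicate 1. The 12 monocyte and macrophage markers summed to 363.5 and 359.0 FPKM in Dhps cko and to 299.4 and 297.5 FPKM in Dhps flox. Most of each sum was *Ly6c2*, a gene of the gate marker Ly6C. It was at 192.22 and 183.75 FPKM in Dhps cko and 157.95 and 160.82 FPKM in Dhps flox (unadjusted p = 0.0071, adjusted p = 0.515 by limma). Of the 12 markers 8 were higher in both Dhps cko libraries, 1 (*Mertk*) was lower in both, and none was at 0, where 20.0% and 16.0% of all genes tested were higher and lower without overlap. After adjustment 0 of the 12 passed at 0.05 by limma, while 5 did so before adjustment, all higher in Dhps cko, as 4.72% of all genes were. The *Cd300e* values overlapped between genotypes where most of these markers did not, and the part of monocytes in its level was not tested. The 6 B cell markers summed to 62.8 and 65.4 FPKM against 40.3 and 49.4 FPKM, with 5 of 6 higher in both Dhps cko libraries, 0 with an adjusted p under 0.05 by limma and none at 0 throughout. Summed levels of T and NK cell markers (14.7 and 11.95 FPKM against 10.1 and 7.21 FPKM), eosinophil markers (12.1 and 10.5 FPKM against 8.34 and 8.78 FPKM) and dendritic cell markers (4.92 and 4.32 FPKM against 3.05 and 3.82 FPKM) were also higher in both Dhps cko libraries, with 3 of 6, 3 of 5 and 4 of 6 markers higher without overlap. The first 2 of these sums each rested on 1 gene. Without *Trbc2* the T and NK cell sum was 6.46 and 6.59 FPKM against 6.52 and 5.7 FPKM, and without *Prg2* the eosinophil sum was 8.11 and 9.15 FPKM against 7.36 and 8.28 FPKM, both overlapping. Summed mast cell and basophil markers were at 12.7 and 12.4 FPKM against 7.36 and 12.2 FPKM. This sum too was higher in both Dhps cko libraries, with 1 of 5 markers higher and 1 lower without overlap. The endothelial sum and, by a narrow margin, the neutrophil sum were higher as well. A higher sum was thus found for all 8 marker lists and was not particular to any cell type.

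*Cd300lg* encodes an endothelial receptor that supports lymphocyte adhesion. It was at 0.29 and 0.44 FPKM in Dhps cko and at 0.15 and 0.32 FPKM in Dhps flox, which stands for about 12 to 38 fragments per library. The groups overlapped. A log2 fold change of 0.50 came with a wide 95% interval (-0.56 to 1.56, adjusted p = 0.84 by limma), and it ran from 0.13 without Dhps flox replicate 1 to 0.88 without Dhps flox replicate 2. The 6 endothelial markers summed to 3.96 and 3.89 FPKM in Dhps cko and 3.40 and 3.55 FPKM in Dhps flox. Most of this was *Pecam1*, at 2.86 to 3.07 FPKM, which leukocytes also express. *Plvap* was at 0.23 to 0.51 FPKM and *Egfl7* at 0.13 to 0.35 FPKM, near the level of *Cd300lg*, while *Cdh5* and *Kdr* were at no more than 0.15 FPKM and *Emcn* at no more than 0.02 FPKM. Of the 6 markers 1 (*Egfl7*, unadjusted p = 0.043, adjusted p = 0.69 by limma) was higher in both Dhps cko libraries, where 20.0% of all genes were higher without overlap and 4.72% at an unadjusted p under 0.05, and the part of endothelial cells in the *Cd300lg* values was not tested.

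With a threshold of 0.05 on the adjusted p, 0 of the 6 receptors passed between genotypes, and 0.00557% of all genes tested did (1 of 17948, limma). At an unadjusted p under 0.05, 0 of the 6 passed as well, where 4.72% of all genes were higher and 2.28% lower in Dhps cko. Of the 6, 5 had a log2 fold change above 0, and their median was 0.10, beside 52.2% above 0 and a median of 0.01 over all genes tested. The summed level of the 6 was 208.8 and 215.5 FPKM in Dhps cko and 192.0 and 207.4 FPKM in Dhps flox. For *Cd300lf*, *Cd300lb*, *Cd300ld* and *Cd300a* the intervals left room for at most a 1.27-fold rise and a fall to 0.896 of the Dhps flox level. With 2 libraries per genotype, the smallest two-sided p an exact permutation test allows is 0.33. The labels name the libraries of a genotype only as replicates, so the p-values measure the spread between these libraries, which may be technical.

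**Figure D3:**
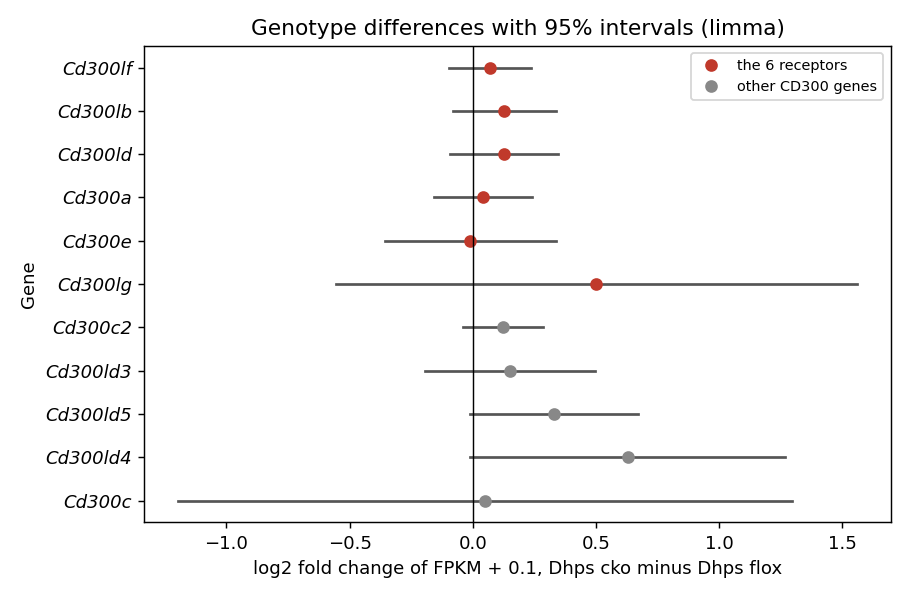
Log2 fold change of FPKM + 0.1, Dhps cko minus Dhps flox, for the 6 receptors (red) and 5 other CD300 genes (grey); points are limma estimates and bars their 95% intervals. Every interval includes 0, and the widest belong to *Cd300lg* and *Cd300c*, the 2 genes with the lowest levels drawn.

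Within the 6 receptors, the summed level of the inhibitory genes exceeded that of the activating genes in all 4 libraries, which rested on *Cd300lf*, since *Cd300a* alone was at no more than 0.304 of the activating sum. *Cd300lf* and *Cd300a* together were at 128.9 and 125.9 FPKM in Dhps cko and at 116.1 and 127.6 FPKM in Dhps flox. *Cd300lb*, *Cd300ld* and *Cd300e* together were at 79.6 and 89.2 FPKM in Dhps cko and at 75.7 and 79.5 FPKM in Dhps flox. The ratio of the sums was 1.62 and 1.41 in Dhps cko and 1.53 and 1.61 in Dhps flox. The lowest and the highest ratio were both in Dhps cko, so the genotypes overlapped, with means of 1.51 ± 0.15 (SD, n = 2) in Dhps cko and 1.57 ± 0.051 (SD, n = 2) in Dhps flox. With *Cd300c2* and *Cd300ld2* to *Cd300ld5* added to the activating sum, the ratio was 1.176 and 1.062 in Dhps cko and 1.148 and 1.2 in Dhps flox, still above 1 in each library and overlapping between genotypes.

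Several CD300 genes share stretches of coding sequence, which bears on how reads were divided between them. The coding sequences of *Cd300lf* and *Cd300ld*, an inhibitory and an activating receptor, share an identical run of 134 bases, and those of *Cd300a* and *Cd300c2* a run of 140 bases. The first 60 bases of the *Cd300lf* run are shown with the closest ungapped stretches of *Cd300ld* and *Cd300lb* from the GENCODE M21 transcripts (GRCm38), capitals marking bases that differ from *Cd300lf*.

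Cd300lf: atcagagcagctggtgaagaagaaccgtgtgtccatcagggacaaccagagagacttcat

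Cd300ld: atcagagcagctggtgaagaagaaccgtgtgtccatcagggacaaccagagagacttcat

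Cd300lb: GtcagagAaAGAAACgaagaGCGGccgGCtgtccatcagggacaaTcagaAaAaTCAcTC

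*Cd300ld* matches *Cd300lf* at every base here, whereas *Cd300lb* differs at 22 of the 60. Counted over the whole coding sequence in windows of 50 bases, 15.5% of the windows of *Cd300ld* occurred in *Cd300lf* and 9.9% of those of *Cd300lf* in *Cd300ld*. Of the windows of *Cd300a*, 10.1% occurred in *Cd300c2*. *Cd300lb*, *Cd300e* and *Cd300lg* shared 0 windows with any other CD300 gene, so no coding stretch of this length is open to such a division. Summed over the pair, *Cd300lf* and *Cd300ld* were at 138.1 and 138.8 FPKM in Dhps cko and 124.5 and 136.9 FPKM in Dhps flox. *Cd300a* and *Cd300c2* together were at 46.1 and 44.6 FPKM in Dhps cko and 41.2 and 44.6 FPKM in Dhps flox. In both pairs Dhps flox replicate 1 was the lowest library and Dhps flox replicate 2 lay close to Dhps cko.

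**Figure D4:**
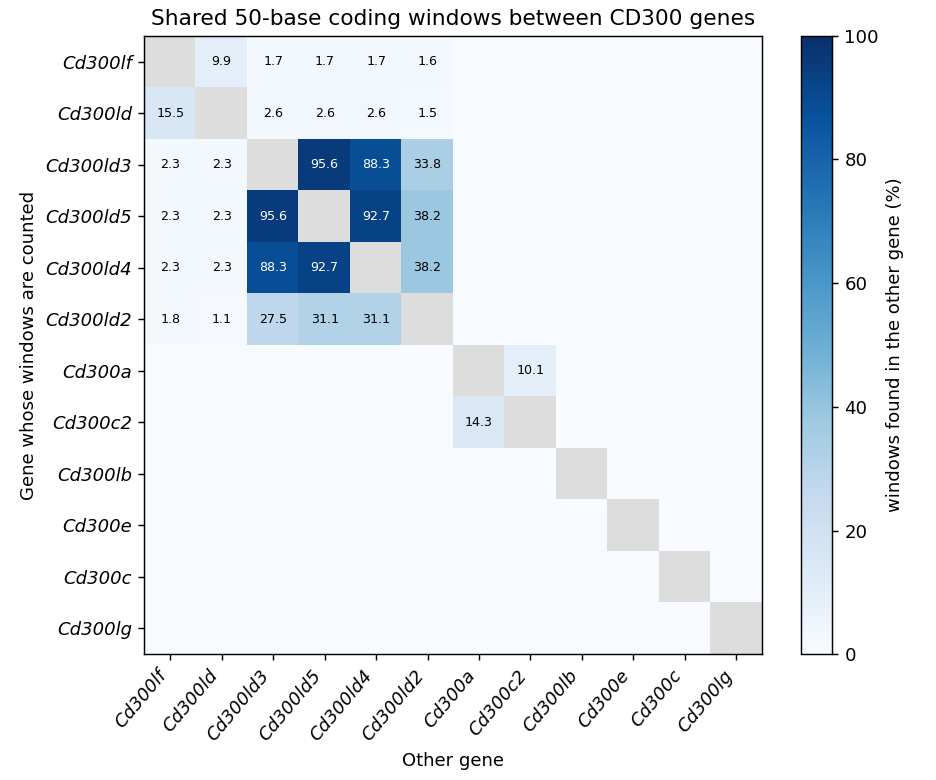
Share (%) of each gene's 50-base coding windows (rows) that also occur in the coding sequence of another CD300 gene (columns); empty cells are 0. *Cd300ld3*, *Cd300ld4* and *Cd300ld5* share between 88.3% and 95.6% of their windows with each other, while *Cd300lb*, *Cd300e*, *Cd300c* and *Cd300lg* share none.

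Of 7 other CD300 genes looked for, 6 were listed and 5 passed the filter. *Cd300c2*, which encodes an activating receptor that pairs with DAP12, lay below *Cd300a* in every library, at 22.34 and 21.43 FPKM in Dhps cko and 19.70 and 20.45 FPKM in Dhps flox. Its genotypes did not overlap, with a log2 fold change of 0.12 (95% interval -0.04 to 0.29, adjusted p = 0.77 by limma). *Cd300c* was at 0.24 and 0.14 FPKM in Dhps cko and 0.28 and 0.10 FPKM in Dhps flox, about 3 to 9 fragments per library, and overlapped.

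*Cd300ld2*, *Cd300ld3*, *Cd300ld4* and *Cd300ld5* are copies next to each other in the cluster. A 60-base coding stretch (bases 223 to 282 of each) is printed for *Cd300ld3*, *Cd300ld4* and *Cd300ld2*, in which it is identical, as it is in *Cd300ld5*, and for *Cd300ld*, with capitals where *Cd300ld* differs.

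Cd300ld3: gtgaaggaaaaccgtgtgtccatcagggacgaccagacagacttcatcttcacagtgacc

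Cd300ld4: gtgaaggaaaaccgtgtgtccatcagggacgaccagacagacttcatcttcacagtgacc

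Cd300ld2: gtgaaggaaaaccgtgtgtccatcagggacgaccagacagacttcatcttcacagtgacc

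Cd300ld: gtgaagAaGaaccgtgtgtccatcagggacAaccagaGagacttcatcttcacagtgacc

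*Cd300ld* differs at 4 of these bases. Every 50-base coding window of *Cd300ld5* occurred in another CD300 gene, as did 95.6% of those of *Cd300ld3*, 92.7% of those of *Cd300ld4* and 31.1% of those of *Cd300ld2*, so the division of reads among these 4 genes is uncertain. *Cd300ld3* was at 3.24 and 3.94 FPKM in Dhps cko and 3.17 and 3.25 FPKM in Dhps flox. *Cd300ld5* was at 2.47 and 2.37 FPKM in Dhps cko and 1.81 and 2.00 FPKM in Dhps flox. *Cd300ld4* was at 1.76 and 1.35 FPKM in Dhps cko and 0.80 and 1.15 FPKM in Dhps flox. *Cd300ld3* overlapped between genotypes, while *Cd300ld5* and *Cd300ld4* were higher in both Dhps cko libraries. *Cd300ld2* was at 0.18 and 0.19 FPKM in Dhps cko and was listed at 0 in both Dhps flox libraries, and with a mean under 0.1 FPKM it was not tested. Log2 fold changes were 0.63 for *Cd300ld4* (95% interval -0.01 to 1.27, adjusted p = 0.71 by limma) and 0.33 for *Cd300ld5* (95% interval -0.01 to 0.67, adjusted p = 0.72 by limma). That of *Cd300ld4* was 0.394 without Dhps flox replicate 1, 0.868 without Dhps flox replicate 2 and 0.372 with a pseudocount of 1.

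Because their reads can be exchanged, the 4 copies were also summed, a grouping made after their values were seen. The sum was 7.65 and 7.85 FPKM in Dhps cko and 5.78 and 6.40 FPKM in Dhps flox, so the genotypes did not overlap. *Cd300ld* stood at 4.302 and 4.597 times this sum in Dhps cko and at 5.164 and 5.217 times in Dhps flox. Of the 6 other CD300 genes, 4 showed no overlap, all higher in Dhps cko, where 20.0% of all genes tested did, and of the 5 tested 0 had an adjusted or an unadjusted p under 0.05 by limma. Of these 4, 3 are the copies that share sequence, so they are not separate observations.

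The partners through which the receptors signal were abundant. *Tyrobp*, which encodes DAP12, was at 425.62 and 424.74 FPKM in Dhps cko and at 376.46 and 350.19 FPKM in Dhps flox. *Fcer1g*, which encodes the Fc receptor gamma chain, was at 330.21 and 331.67 FPKM in Dhps cko and at 288.65 and 284.79 FPKM in Dhps flox. For both adaptors the Dhps cko libraries lay above the Dhps flox libraries, and the level of each exceeded that of every CD300 receptor in each library. Log2 fold changes were 0.23 for *Tyrobp* (95% interval 0.07 to 0.39, unadjusted p = 0.014, adjusted p = 0.57 by limma) and 0.21 for *Fcer1g* (95% interval 0.08 to 0.34, unadjusted p = 0.010, adjusted p = 0.54 by limma), so neither passed over all genes. With each library left out in turn, the log2 fold change ran from 0.18 to 0.28 for *Tyrobp* and from 0.20 to 0.22 for *Fcer1g*. In these fits 1 group holds a single library, which is assumed to vary like the other group. The unadjusted p from limma was 0.011 and 0.034 for *Tyrobp* and 0.019 and 0.026 for *Fcer1g* without a Dhps flox library, and 0.108 and 0.105 for *Tyrobp* and 0.071 and 0.076 for *Fcer1g* without a Dhps cko library. *Hcst*, which encodes DAP10, was far lower, at 14.66 to 19.40 FPKM, and overlapped.

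The kinases *Syk*, *Lyn*, *Fgr* and *Src* were each at a lower level than *Tyrobp* and *Fcer1g* in every library. *Syk*, the kinase recruited by DAP12 and the gamma chain, was at 61.02 to 66.28 FPKM and *Lyn* at 72.20 to 78.34 FPKM, both with overlapping genotypes. *Fgr* was at 127.33 and 126.71 FPKM in Dhps cko and at 114.30 and 120.42 FPKM in Dhps flox, with no overlap, while *Src* was at no more than 0.54 FPKM. Of the 11 adaptors and kinases, 0 had an adjusted p under 0.05, and 3 were higher and 0 lower without overlap, where 20.0% and 16.0% of all genes were. At an unadjusted p under 0.05, 2 were higher in Dhps cko and 0 lower, beside 4.72% and 2.28% of all genes. Their median log2 fold change was 0.06. Monocytes and macrophages also express *Tyrobp* and *Fcer1g*. The summed level of their markers, given beside *Cd300e*, was higher in both Dhps cko libraries too, with 8 of 12 higher and *Mertk* lower in both, and its part in these differences was not tested.

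On the inhibitory side, *Ptpn6*, which encodes the phosphatase SHP-1 that CD300a and CD300LF recruit, was at 218.81 and 210.94 FPKM in Dhps cko and at 192.12 and 206.53 FPKM in Dhps flox. The genotypes did not overlap, with a log2 fold change of 0.11 (95% interval -0.05 to 0.27, adjusted p = 0.78 by limma). This came to 0.057 without Dhps flox replicate 1, 0.161 without Dhps flox replicate 2 and 0.044 after quantile normalization. *Ptpn11*, which encodes SHP-2, was at 17.56 to 18.94 FPKM, and *Inpp5d*, which encodes the lipid phosphatase SHIP-1, at 29.76 to 31.28 FPKM. *Ptpn6* thus exceeded *Ptpn11* in every library. *Cbl*, which encodes a ubiquitin ligase that acts on active kinases, was at 63.17 and 57.93 FPKM in Dhps cko and at 68.55 and 69.64 FPKM in Dhps flox. It had the lowest p of the list, with a log2 fold change of -0.19 (95% interval -0.36 to -0.03, unadjusted p = 0.031, adjusted p = 0.65 by limma), lower in both Dhps cko libraries. With each library left out, again with 1 group of a single library, its log2 fold change ran from -0.25 to -0.13. The unadjusted p from limma was then 0.036 without Dhps cko replicate 1, 0.143 without Dhps cko replicate 2, 0.101 without Dhps flox replicate 1 and 0.134 without Dhps flox replicate 2. Of the 12 genes, 0 had an adjusted p under 0.05, and 5 were higher and 3 lower in both Dhps cko libraries, where 20.0% and 16.0% of all genes were. At an unadjusted p under 0.05 by limma, 0 were higher and 1 lower in Dhps cko, beside 4.72% and 2.28% of all genes. The median log2 fold change was 0.03.

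**Figure D5:**
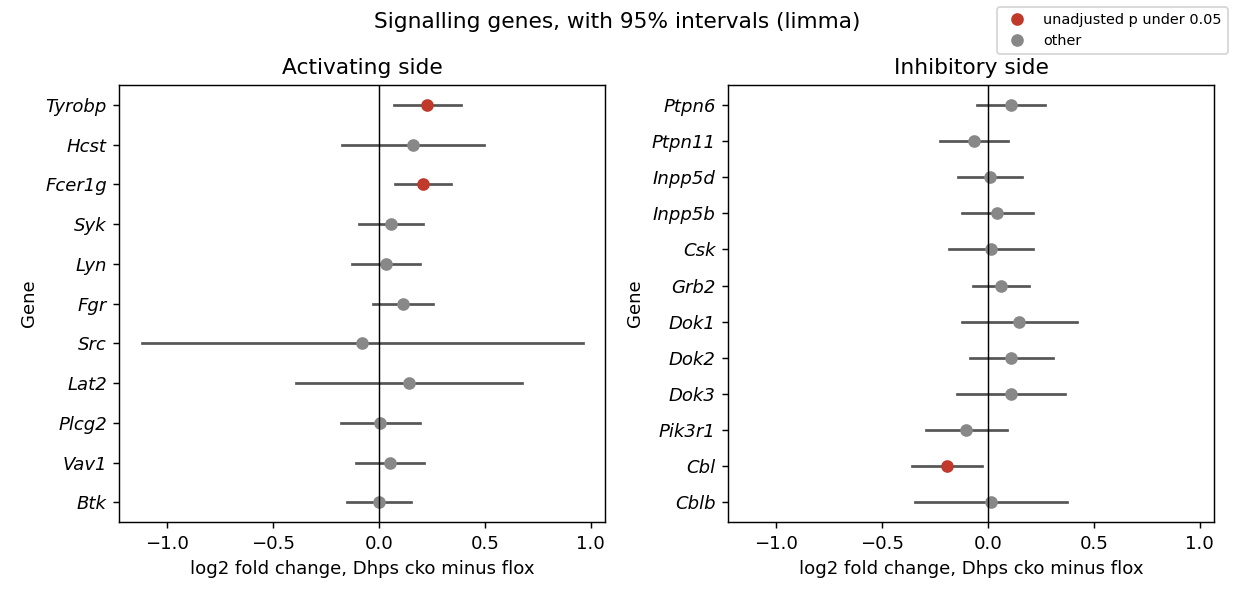
Log2 fold changes (Dhps cko minus Dhps flox) of 11 adaptor and kinase genes of activating receptors (left) and 12 phosphatase and adaptor genes of inhibitory receptors (right); points are limma estimates, bars their 95% intervals, and red points have an unadjusted p under 0.05. *Tyrobp* and *Fcer1g* lie above 0 and *Cbl* below 0, and the remaining intervals include 0.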

How the data were processed

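Total RNA of sorted splenic PMN-MDSCs was sequenced in 4 libraries, 2 per genotype. The authors filtered reads with Cutadapt, aligned them with HISAT2 (mm10 in the submitters' processing notes) and deposited FPKM per gene from StringTie and ballgown, rounded to 2 decimals. The annotation, strand setting and any scaling between libraries are not given in the sources used here. Of 28585 gene identifiers, 28511 were in GENCODE M21 (GRCm38), which gave coordinates and transcripts. Promoters came from RefSeq.

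Linear models were fitted to log2(FPKM + 0.1) using R 4.3.3 and limma 3.58.1, with a variance trend, Benjamini-Hochberg adjustment and a threshold of 0.05. After these fits, the model was also run on simulated data built from their gene means and spreads. The changes planted there were larger than those of the receptors, so that run does not cover differences of their size. Other steps used Python 3.11.15 with numpy 2.4.6, pandas 2.3.3 and matplotlib 3.10.9. Fragments are approximate, estimated from single-exon genes of 200 to 600 bases and multiplied by exon length. Shared windows were of 50 bases. The genes named are the 6 receptors, *Dhps*, the other CD300 genes, the 2 signalling lists and the 3 genes nearest to the most abundant receptor in pattern. Marker genes of 8 cell types were summed and counted. *Rab37* and the single markers *Ly6g*, *S100a9*, *Ngp*, *Ly6c2*, *Mertk*, *Trbc2*, *Prg2*, *Pecam1*, *Cdh5*, *Kdr*, *Plvap*, *Emcn* and *Egfl7* were named, and sums without *Trbc2* or *Prg2* taken, after their values were seen. From 1 of the lists, 1 gene is not reported here and was left out of the counts. The members and lists were chosen with earlier results of these data known. Alternatives were other pseudocounts, filters, scalings, variance models, a replicate block and leaving out each library.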

Additional observations from a re-analysis of the deposited data

How the results depend on the processing

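None of the 6 receptors had an adjusted p under 0.05 under any of the 13 alternatives, of which the filter of at least 1 FPKM left *Cd300lg* untested. The lowest adjusted p was 0.54 and the lowest unadjusted p 0.051. The log2 fold changes of *Cd300lb*, *Cd300ld* and *Cd300lg* stayed above 0 in these fits, and that of *Cd300lf* ran from 0.006 (without Dhps flox replicate 1) to 0.135. With each library left out, the log2 fold change of *Cd300a* ran from -0.041 to 0.125, that of *Cd300e* from -0.153 to 0.133 (0.029 without Dhps cko replicate 1) and that of *Cd300c* from -0.412 to 0.514 (-0.20 without Dhps cko replicate 1), and no cause was tested. The difference in the ratio of inhibitory to activating receptors (-0.055 between group means) ran from -0.16 without Dhps cko replicate 1 to 0.049 without Dhps cko replicate 2. By approximate fragments, which grow with transcript length, 4 of the 5 neighbouring pairs kept their order without overlap, and the fifth turned, with *Cd300a* (3032 to 3640 fragments) above *Cd300ld* (2349 to 2978). The number of all genes with an adjusted p under 0.05 was 1, and was 0 with a pseudocount of 0.01, 0 with no filter, 4 with a filter of at least 1 FPKM, 2 after rescaling to TPM, 2 after quantile normalization and 0 with each library left out. It was 1257 with an unadjusted p under 0.05. At that threshold 4.72% of all genes were higher and 2.28% lower in Dhps cko. Of the 6 receptors, the 5 other CD300 genes tested and the signalling lists of 11 and 12 genes, 3 passed it (*Tyrobp*, *Fcer1g* and *Cbl*). Without a variance trend their unadjusted p rose to 0.096, 0.099 and 0.151 by limma. *Cd300ld5*, at 0.055, came to 0.046 without a trend, 0.0495 with a pseudocount of 0.01 and 0.0456 with no filter. Libraries with the same replicate number did not deviate together (r = -0.057 across 10629 genes), so the numbers were not taken as pairs. Nothing links these numbers to litters, so this does not show whether libraries share a litter. With the replicate number as a block, the number of genes with an adjusted p under 0.05 was 0, and *Tyrobp*, *Fcer1g* and *Cbl* had unadjusted p of 0.054, 0.059 and 0.071 by limma.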

Other observations

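The genes whose pattern over the 4 libraries lay nearest to that of *Cd300lf*, by the root mean square difference of centred log2(FPKM + 0.1), were *Traf3ip3* (0.0027), *Trim8* (0.0047) and *Ppp4c* (0.0050). *Traf3ip3* was at 31.31 and 30.45 FPKM in Dhps cko and at 28.11 and 30.83 FPKM in Dhps flox, so it shared with *Cd300lf* a lowest value in Dhps flox replicate 1. Of 10628 genes compared, 1163 lay within 0.05 of *Cd300lf*, so nearness over 4 libraries was shared by many genes.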
